A study of Mus musculus with 6 samples.

Results

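Transcripts of the Fgf receptors, of 5 Fgf ligands and of the Fgf carrier Fgfbp1 were followed in dental epithelial organoids (DEOs) grown in 4 media. The 10 genes, Fgfr1, Fgfr2, Fgfr3, Fgfr4, Fgf1, Fgf2, Fgf4, Fgf9, Fgf20 and Fgfbp1, were picked by name out of 47360 gene symbols in the table, and all 10 were found there. DEOs were started from dissociated apical bud epithelium of the incisor of wild-type 9-week-old female C57BL/6J mice, and the number of mice behind each library was not given in the sources used here. Every medium held Wnt3a and R-spondin1 as conditioned media, EGF at 100 µg per ml, Noggin at 200 µg per ml, N-acetylcysteine and the kinase inhibitor Y27632, and cultures were collected at day 14. The +N medium held nothing further, +ND also held the Notch inhibitor dibenzazepine (DBZ), +NF also held FGF10 at 100 µg per ml, and +NFD held both. The labels give DBZ as 10 µM, while the methods text gives 10 in millimolar units. The Jagged1 media +NJ and +NFJ were not analysed here.

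Fgf receptors are tyrosine kinases of the cell surface that bind Fgf ligands together with heparan sulfate and signal largely through the adaptor Frs2 to Ras and ERK. Alternative splicing of the third immunoglobulin-like domain gives Fgfr1, Fgfr2 and Fgfr3 an epithelial b form and a mesenchymal c form, and FGF10, made by mesenchyme, acts mainly through the b form of Fgfr2. In the tooth, ligands such as Fgf4, Fgf9 and Fgf20 are known from the enamel knot and dental epithelium, Fgf10 is known from the mesenchyme around the cervical loop, and DBZ blocks the γ-secretase cleavage that releases the active part of Notch receptors.

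Values are FPKM, fragments scaled to transcript length and to the mapped total of the library, so levels can be compared between genes per length. Each medium had 1 library, so differences between media could not be set against a spread between cultures, and no test was run. Differences are given as log2 ratios of FPKM + 1, a scale that shrinks the ratios of low genes, and a gene was counted at a 2-fold ratio if it had at least 1 FPKM in the higher library. Over all genes that passed this limit the median log2 ratio was 0.12 for +NF against +N, 0.094 for +NFD against +ND, 0.10 for +ND against +N, 0.048 for +NFD against +NF and 0.18 for +NFD against +N. The smallest steps between low values gave approximate depths of 0.989 (+NF), 0.951 (+NFD) and 0.768 (+ND) when +N is set to 1. The 5 epithelial markers Krt5, Krt14, Cdh1, Epcam and Trp63 were each above 50 FPKM in every library. Their summed level was 19608 FPKM in +N, 15270 in +NF, 10802 in +ND and 12564 in +NFD. Endothelial and Schwann cell markers were all under 1 FPKM, with Sox10 and Foxd3 listed at 0 in all 4 libraries, whereas macrophage markers summed to between 93.3 and 137 FPKM. The 10 fibroblast markers summed to 156 FPKM in +N, 98.1 in +NF, 138 in +ND and 396 in +NFD, and in +NFD all 10 were above their level in each other library. In bulk RNA, a different number of cells of a type and a different amount of RNA per cell cannot be told apart.

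Receptor transcripts differed between media both in amount and in make-up. Fgfr1 was below Fgfr2 in +N and +ND and above it in +NF and +NFD, while Fgfr2 and Fgfr3 were highest in +ND and lowest in +NF. Fgfr4 was at the limit of detection. Of the ligands, Fgf1 was present in the media without DBZ and far lower in those with it, and Fgf9 exceeded 1 FPKM only in +NFD of the 4 media.

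**Figure D1:**
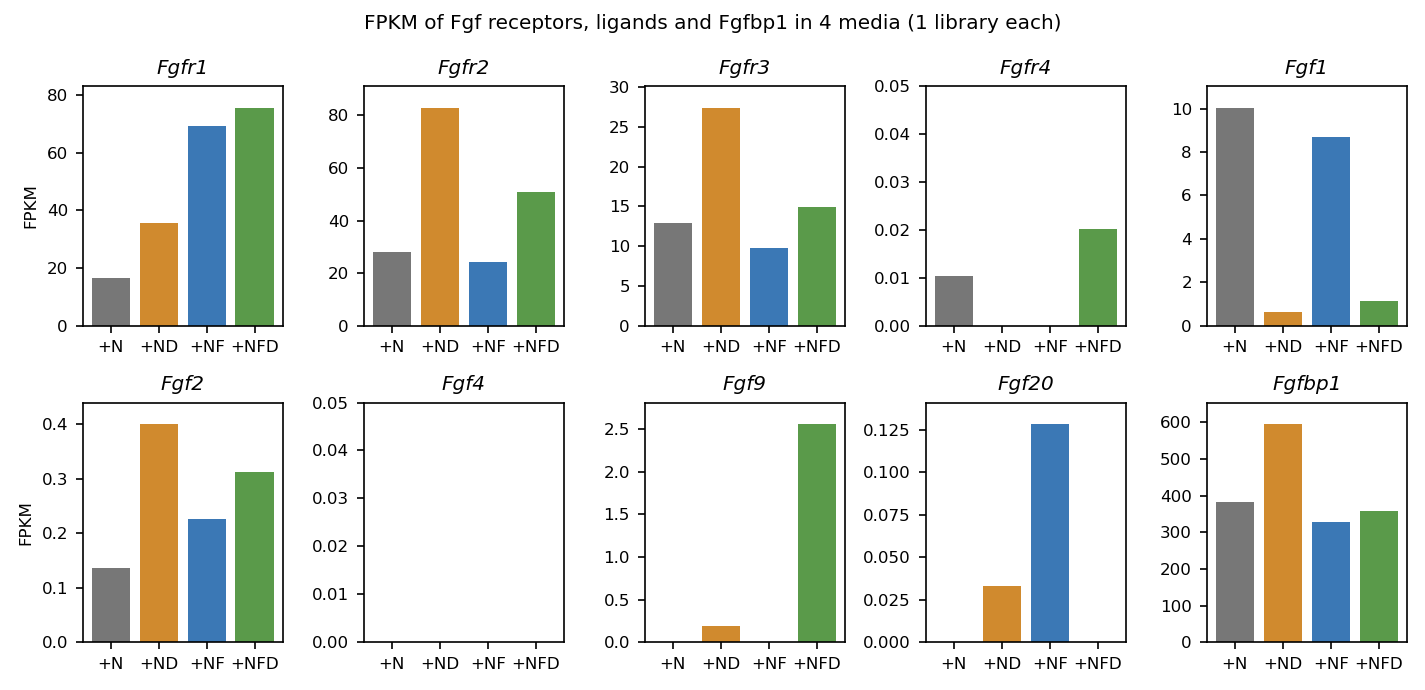
Bars show FPKM (vertical axis, linear from 0, own scale per panel) of each of the 10 genes in the +N, +ND, +NF and +NFD libraries, 1 library each and no error bars. Fgfr1 is highest in +NFD at 75.6 FPKM, Fgfr2 in +ND at 82.8, Fgf1 in +N at 10.0 and Fgf9 in +NFD at 2.56, and the Fgf4 panel is empty because all 4 values are 0.

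Fgfr1, which lies at chr8:25513654-25575714 on the plus strand of GRCm38, measured 16.5 FPKM in +N, 69.3 in +NF, 35.6 in +ND and 75.6 in +NFD. The +NF and +NFD values, both from media with FGF10, were close to each other and above both media without it. FGF10 went with a 4.21-fold higher FPKM in the absence of DBZ, a log2 ratio of 2.01, and with a 2.13-fold higher FPKM in its presence, a log2 ratio of 1.07. These 2 comparisons have no library in common. A small antisense gene inside Fgfr1, Gm16159, reached at most 0.141 FPKM. DBZ went with a 2.16-fold higher Fgfr1 without FGF10, a log2 ratio of 1.07, but with FGF10 the log2 ratio was 0.12. On the log2 scale the ratio of FGF10 was thus 0.94 smaller with DBZ than without it, a difference that was not tested. Centring ratios on the median of all genes puts the ratio of +NFD to +ND at 0.97 and that of +ND to +N at 0.96, just under the 2-fold limit, whereas that of +NF to +N is 1.89. Fgfr1 is also a receptor of mesenchymal cells. The fibroblast marker sum was lower in +NF than in +N, at 98.1 against 156 FPKM, and higher in +NFD than in +ND, at 396 against 138 FPKM. In the latter comparison 7 of the 10 markers were at least 2-fold higher, against 3.39% of all genes. In +NFD the marker sum was 4.04 times its level in +NF, and it was also above its level in +N. The part of these markers in the Fgfr1 values was not tested.

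Fgfr2, the receptor through which FGF10 mainly acts, was at 28.2 FPKM in +N, 24.2 in +NF, 82.8 in +ND and 50.8 in +NFD. Both media with DBZ lay above both media without it. DBZ went with a 2.93-fold higher Fgfr2 in the absence of FGF10, a log2 ratio of 1.52, and with a log2 ratio of 1.04 in its presence. FGF10 went with slightly lower values, a log2 ratio of -0.21 without DBZ and -0.69 with it, both short of 2-fold. Both DBZ media had lower summed epithelial markers than their counterparts, 10802 FPKM in +ND against 19608 in +N and 12564 in +NFD against 15270 in +NF. Krt5 and Krt14 made up most of that sum. Of the 5 markers only Trp63 was higher with DBZ in both comparisons. It was at 166 FPKM in +ND against 88.5 in +N and at 124 in +NFD against 100.4 in +NF. Cdh1 was lower, at 68.0 FPKM in +ND against 163 in +N and at 74.7 in +NFD against 120 in +NF. Epcam was also lower, at 54.8 FPKM in +ND against 122 in +N and at 98.4 in +NFD against 218 in +NF. The part of these markers in the Fgfr2 values was not tested. Centring leaves the DBZ ratio at 1.42 without FGF10 and at 0.99 with it, so that the latter falls just below the limit. The deposited entry lies on the minus strand of chromosome 7 of GRCm38 from 130162451 to 133123350. Of the 27 annotated transcripts, 1 extends that far, and the others end by 130266263. This transcript shares exon bases with Ctbp2 on the same strand, which was at 29.0 FPKM in +N, 35.2 in +NF, 26.9 in +ND and 34.1 in +NFD and so did not vary as Fgfr2 did.

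Fgfr3, which lies at chr5:33721674-33737068 on the plus strand, measured 12.9 FPKM in +N, 9.77 in +NF, 27.4 in +ND and 14.95 in +NFD. The order of media was the same as for Fgfr2, and the log2 ratio of +NFD to +N was 0.20 against 0.83 for Fgfr2. DBZ went with a log2 ratio of 1.03 without FGF10, or 0.93 after centring, and of 0.57 with FGF10. The ratio of FGF10 was -0.37 without DBZ and -0.83 with DBZ. Fgfr4, which lies at chr13:55152640-55168759 on the plus strand, measured 0.0105 FPKM in +N and 0.0202 in +NFD and was listed at 0 in +ND and +NF. At its longest transcript of 3324 nt the 2 values above 0 correspond to about 0.995 and 1.82 fragments, so Fgfr4 was not measurable at this depth in these 4 libraries.

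Summed over the 4 receptor genes, the level was 57.6 FPKM in +N, 103 in +NF, 146 in +ND and 141 in +NFD. Fgfr2 made up the largest part of the sum in +N, at 49.0%, and in +ND, at 56.8%. Fgfr1 made up the largest part in +NF, at 67.1%, and in +NFD, at 53.5%. The share of Fgfr2 was 23.4% in +NF and 35.9% in +NFD, and the share of Fgfr1 was 28.6% in +N and 24.4% in +ND. Fgfr3 held 22.4% in +N, 9.46% in +NF, 18.8% in +ND and 10.6% in +NFD. A share within a library does not depend on the scaling of that library.

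**Figure D2:**
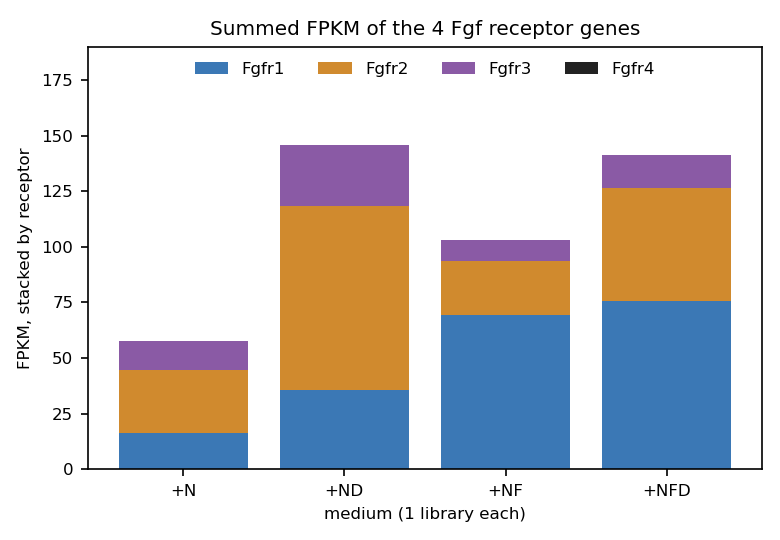
Stacked bars show the FPKM of Fgfr1, Fgfr2, Fgfr3 and Fgfr4 (vertical axis, linear from 0) in each medium, with 1 library per medium and no error bars. The whole bar is 57.6 FPKM in +N, 103 in +NF, 146 in +ND and 141 in +NFD, and the Fgfr1 part is tallest in the 2 media with FGF10 while Fgfr4 is too low to be seen.

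Fgfr2, Fgfr3 and Fgfbp1 were highest in +ND, and of the 4 media analysed Fgf9 was seen in the 2 with DBZ. Their promoter sequences are shown for the letters they hold, and a link between these letters and the levels with DBZ was not tested. Each line gives the 250 bases before the RefSeq start site on GRCm38.p6, read 5′ to 3′ on the strand of the gene. The windows are chr7:130266809-130267058 on the minus strand for Fgfr2, chr5:33722056-33722305 on the plus strand for the downstream of 2 starts of Fgfr3, chr5:43981800-43982049 on the minus strand for Fgfbp1 and chr14:58072436-58072685 on the plus strand for Fgf9, which is intronic to a longer GENCODE transcript of Fgf9. The printed Fgfr3 window lies within the span of GENCODE transcripts of Fgfr3 that start upstream of it, between 33721674 and 33721798. The window before the upstream start of Fgfr3 is not printed because it runs into an annotated first exon of the gene. GENCODE transcripts of Fgfr2, apart from the 1 that extends to 133123350, begin at or downstream of 130266263, inside the gene from the RefSeq start. Capitals mark TGGGAA or its reverse complement TTCCCA, the core letters bound by RBPJ, the DNA-binding partner of Notch.
Fgfr2: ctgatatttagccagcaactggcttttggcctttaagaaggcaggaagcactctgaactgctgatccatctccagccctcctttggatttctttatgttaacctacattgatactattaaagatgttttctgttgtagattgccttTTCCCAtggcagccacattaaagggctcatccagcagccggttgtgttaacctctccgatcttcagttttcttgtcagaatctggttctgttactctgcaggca
Fgfr3: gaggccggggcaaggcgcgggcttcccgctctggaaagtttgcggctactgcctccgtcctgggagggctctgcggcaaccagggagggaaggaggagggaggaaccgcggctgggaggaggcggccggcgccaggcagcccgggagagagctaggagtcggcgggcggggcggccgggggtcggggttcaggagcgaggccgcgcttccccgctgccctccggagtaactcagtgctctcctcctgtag
Fgfbp1: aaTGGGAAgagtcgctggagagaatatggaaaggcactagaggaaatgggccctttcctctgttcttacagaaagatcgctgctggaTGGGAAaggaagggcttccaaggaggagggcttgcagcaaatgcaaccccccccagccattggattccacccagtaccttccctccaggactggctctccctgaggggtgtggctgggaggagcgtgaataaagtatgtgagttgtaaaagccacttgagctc
Fgf9: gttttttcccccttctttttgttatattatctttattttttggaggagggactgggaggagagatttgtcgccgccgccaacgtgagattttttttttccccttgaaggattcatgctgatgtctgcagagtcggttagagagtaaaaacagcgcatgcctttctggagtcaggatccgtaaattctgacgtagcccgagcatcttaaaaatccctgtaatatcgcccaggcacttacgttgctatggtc
The letters occurred 1 time in the Fgfr2 window, at position -104 from the start, and 2 times in the Fgfbp1 window, and were found neither in the Fgf9 window nor in either window of Fgfr3. Among 32851 promoter windows of the same length, 21.6% held them on either strand, so a match is common. CCGGAA, the core of ETS factors, and CTTTGA, the core of TCF/LEF factors, were searched on both strands in the same way. They were in 12.03% and 13.8% of all windows and in none of the 4 shown. Promoters of 7 of the 10 genes were in the RefSeq table, with Fgfr1, Fgf1 and Fgf20 absent, so no window of these was searched. A match describes letters and not a bound site.

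Fgf1, which can bind all Fgf receptors and lacks a signal peptide, was at 10.0 FPKM in +N, 8.70 in +NF, 0.631 in +ND and 1.15 in +NFD. Both media with DBZ lay well below both media without it. At the longest transcript of 3983 nt these values correspond to about 1142, 978, 55.1 and 124 fragments in the same order of media. Fgf1 was 15.9-fold lower in +ND than in +N, with a 95% exact binomial interval of 12.2 to 21.3 from these approximate fragment numbers, and 7.57-fold lower in +NFD than in +NF, with an interval of 6.29 to 9.22. These intervals cover counting error only and not the spread between cultures. The log2 ratios were -2.76 and -2.17, and after centring they were -2.86 and -2.22. The ratio of FGF10 was small, at -0.19 without DBZ and 0.40 with it. Fgf1 lies on chromosome 18 from 38838673 to 38929404.

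Fgf9, a secreted ligand of the dental epithelium, was at 2.56 FPKM in +NFD and 0.190 in +ND, and was listed at 0 in +N and +NF. Of these 4 media it was thus above 0 in the 2 with DBZ and highest where FGF10 was present as well. By the authors' count of detections, it was also above 0 in both Jagged1 media, which held no DBZ. The 2 values above 0 correspond to about 249.7 and 14.97 fragments at the longest transcript of 3593 nt, and in the libraries at 0 a count of 3 fragments would correspond to 0.0292 FPKM in +N and 0.0296 in +NF. Fgf9 was 13.5-fold higher in +NFD than in +ND, with a counting interval of 7.999 to 24.4, and the log2 ratio was 1.58. Against +N and +NF the log2 ratio of FPKM + 1 was 1.83, a value set by the added 1 and no bound. The gene passed the limit of 1 FPKM only through +NFD, so its being counted there as higher follows in part from that limit. Fgf9 lies on chromosome 14 from 58070547 to 58112337. The summed fibroblast markers were also highest in +NFD, at 396 FPKM against 138 in +ND, and their part in the Fgf9 value was not tested.

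The other 3 ligands stayed under 1 FPKM in every library. Fgf2, which like Fgf1 lacks a signal peptide, was at 0.137 FPKM in +N, 0.226 in +NF, 0.400 in +ND and 0.312 in +NFD, between 23.3 and 52.4 fragments at 5973 nt. It was 2.93-fold higher in +ND than in +N, with a counting interval of 1.77 to 5.04, and 1.38-fold higher in +NFD than in +NF, with an interval of 0.899 to 2.18 that includes no difference. Fgf2 shares exon bases with Nudt6 on the opposite strand, which was between 3.55 and 4.22 FPKM. Since the strand setting was not stated, fragments of the 2 genes may not be fully separated. Fgf20, known from the enamel knot, was at 0.0332 FPKM in +ND and 0.128 in +NF, about 1.07 and 5.34 fragments, and was listed at 0 in +N and +NFD. Micu3, on the opposite strand, shares exon bases with it and was between 1.07 and 2.63 FPKM. Fgf4 was listed at 0 in all 4 libraries, where 3 fragments correspond to between 0.0347 and 0.0451 FPKM. None of the 8 housekeeping genes was at 0 in any library. Differences between media in Fgf4 and Fgf20 were not detectable at this depth.

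Fgfbp1 encodes a secreted carrier that releases Fgfs from the matrix. It was the most abundant of the 10 genes per length in every library, with 382 FPKM in +N, 329 in +NF, 594 in +ND and 357 in +NFD. The value in +ND stood above the other 3, which lay within 54 FPKM of each other. DBZ went with a log2 ratio of 0.64 without FGF10 and 0.12 with it. FGF10 went with a log2 ratio of -0.22 without DBZ and -0.73 with it. None of these reached 2-fold. Fgfbp1 lies on the minus strand of chromosome 5 from 43978858 to 43981779.

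**Figure D3:**
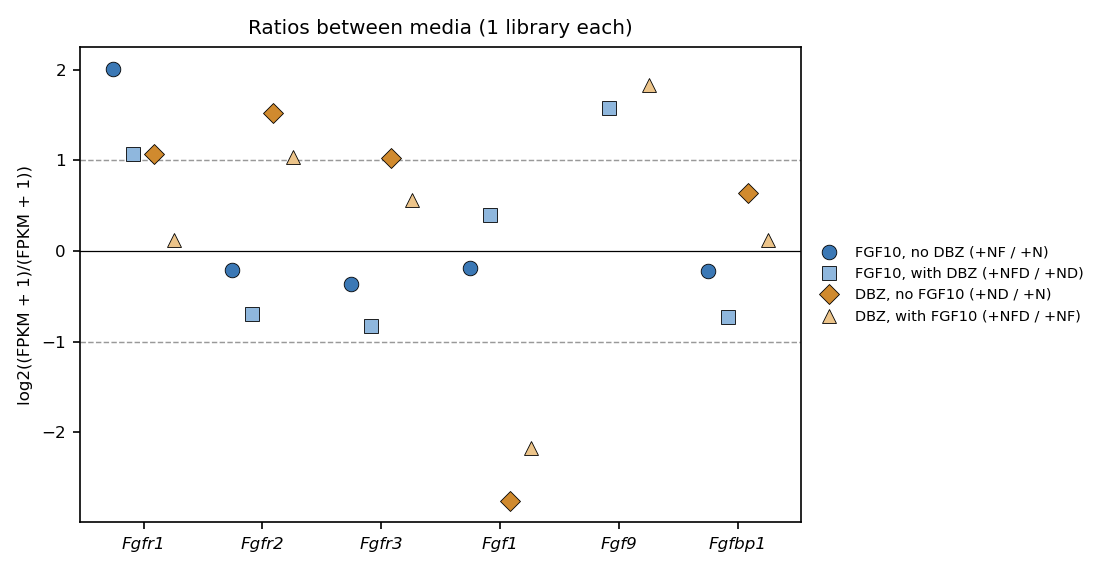
Points show log2 ratios of FPKM + 1 between 2 media (vertical axis) for the 6 genes that passed 1 FPKM in at least 1 library, with blue for adding FGF10 and orange for adding DBZ; dashed lines mark 2-fold and each ratio is from 1 library per medium. Fgfr1 lies at 2.01 and 1.07 for FGF10, Fgfr2 at 1.52 and 1.04 for DBZ, and Fgf1 at -2.76 and -2.17 for DBZ.

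Counted at 2-fold, 1 of the 10 genes was higher in +NF than in +N, namely Fgfr1, and 0 were lower, where 2.76% of 13090 genes were higher and 2.44% lower, or 1.89% and 3.15% after centring. In +NFD against +ND, Fgfr1 and Fgf9 were higher and 0 of the 10 were lower, with 3.39% of all genes higher and 3.11% lower, or 2.6% and 3.81% after centring. In +ND against +N, Fgfr1, Fgfr2 and Fgfr3 were higher and Fgf1 was lower, with 5.88% of genes higher and 5.29% lower, or 4.67% and 6.39% after centring. Only Fgfr2 and Fgf1 of these 4 stayed past 2-fold with centring or with upper-quartile scaling. In +NFD against +NF, Fgfr2 and Fgf9 were higher and Fgf1 was lower, with 3.72% of genes higher and 2.69% lower, or 3.45% and 2.91% after centring. In +NFD against +N, Fgfr1 and Fgf9 were higher and Fgf1 was lower, with 5.85% of genes higher and 4.03% lower, or 4.04% and 5.35% after centring, and this comparison shares a library with each of the other 4. The limit of 1 FPKM was passed by 5 of the 10 genes in the comparisons of +NF and +ND with +N, and by 6 in those with +NFD. The 10 genes were chosen with values of these libraries known, so the counts describe them only.

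The patterns of the receptors over the 4 libraries were compared with those of 8586 other genes at 5 FPKM or more in every library, by the root mean square distance between log2(FPKM + 1) values centred on their mean. Closest to Fgfr1 were Galnt6, a transferase that starts mucin-type O-glycans, at a distance of 0.10, and the fatty acid desaturase genes Fads2 at 0.17 and Fads3 at 0.20. Closest to Fgfr2 were Procr, the protein C receptor, at 0.074, Tob1 at 0.084 and Glul, glutamine synthetase, at 0.094. Procr was at 21.8 FPKM in +N, 21.5 in +NF, 71.8 in +ND and 43.5 in +NFD. For Fgfr3 the nearest were the immediate early gene Ier3 at 0.056, the kinase gene Pim1 at 0.070 and Ifrd1 at 0.070. For Fgfbp1 they were Tfap2a, which encodes a transcription factor of surface ectoderm, at 0.034, Gm29562 at 0.036 and Rcan1 at 0.038. Within a distance of 0.1 there were 0 genes for Fgfr1, 3 for Fgfr2, 7 for Fgfr3 and 44 for Fgfbp1. With 4 points a near match is easily found, and it is a description only.

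The remaining 13 secreted Fgf ligands were mostly near 0. Fgf6 was listed at 0 in all 4 libraries, and 10 of the 13 stayed under 1 FPKM in every library. Fgf22, a ligand of the same subfamily as FGF10, was at 0.125 FPKM in +N, 0 in +NF, 3.35 in +ND and 1.27 in +NFD. Fgf23, a hormone of phosphate balance made chiefly by bone, was at 0.246 FPKM in +N, 0.645 in +NF, 4.47 in +ND and 2.28 in +NFD. Both were higher in the media with DBZ than in those without, with log2 ratios for DBZ of 1.95 and 2.13 without FGF10 and of 1.19 and 0.99 with it. Both passed the limit of 1 FPKM only through media with DBZ, so being counted as higher there follows in part from that limit. Fgf7, a mesenchymal ligand of the b form of Fgfr2, was at 1.34 FPKM in +N, 0.162 in +NF, 1.62 in +ND and 2.74 in +NFD. Its order over the media was that of the summed fibroblast markers except that +N and +ND were exchanged, and their part in it was not tested. The cells' own Fgf10 transcript stayed between 0.0179 and 0.248 FPKM.

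Of 7 genes of co-receptors and binding proteins, the klotho co-receptor genes Kl and Klb were under 0.01 FPKM in every library. Flrt3, a membrane protein that binds Fgf receptors, was at 13.8 FPKM in +N, 19.5 in +NF, 30.4 in +ND and 17.3 in +NFD, and was the only one of the 7 to reach 2-fold in any comparison, with a log2 ratio of 1.08 in +ND against +N that is 0.98 relative to the median of all genes. In +ND against +N 5.88% of all genes were at least 2-fold higher. Fgfrl1, a receptor-like protein without the kinase, was between 9.00 and 13.4 FPKM.

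Heparan sulfate, which holds ligand and receptor together, is made and trimmed by enzymes and carried by syndecans and glypicans. All 21 genes of this list were above 1 FPKM in +N. Adding FGF10 without DBZ went with a higher level of 16 of them, where 65.7% of all genes were higher, and the median log2 ratio was 0.20 against 0.12 for all genes. With DBZ present 17 were higher with FGF10, where 59.0% of all genes were higher, and the median was 0.25 against 0.094. Adding DBZ went with a higher level of 7 of the 21 without FGF10 and of 5 with it. Over all genes 58.2% and 57.2% were higher in these comparisons. The list medians were -0.23 and -0.080, against 0.10 and 0.048 for all genes. Sulf2, a sulfatase that removes 6-O-sulfates, was at 7.73 FPKM in +N, 23.1 in +NF, 14.6 in +ND and 21.9 in +NFD, with a log2 ratio of 1.47 for FGF10 without DBZ. Gpc1, a glypican, was at 82.2 FPKM in +N, 138 in +NF, 51.2 in +ND and 115 in +NFD, and Gpc3 was at 14.5, 28.3, 12.8 and 26.7 in the same order of media. Both reached 2-fold in +NFD against +ND, with log2 ratios of 1.15 and 1.01, the latter being 0.92 relative to the median. Sdc3 and Sulf2 were higher in +NFD than in +N by log2 ratios of 1.06 and 1.39, and Gpc6 was lower in +ND than in +N by -1.14. At 2-fold, 1 of the 21 was higher in +NF against +N, 2 in +NFD against +ND and 2 in +NFD against +N. The shares of all genes were 2.76%, 3.39% and 5.85%. In +ND against +N 1 of the 21 was lower, where 5.29% of all genes were. Counts this small describe the named genes and not the list. Sdc1, the main syndecan of epithelium, was the most abundant gene of this list in all 4 libraries, between 361 and 514 FPKM.

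The 25 genes listed from receptor adaptors to ERK, among them Frs2, Grb2, Ptpn11, Hras and Map2k1, all had at least 1 FPKM, and 0 of them reached 2-fold in any of the 5 comparisons. Over the 5 comparisons between 2.76% and 5.88% of all genes were at least 2-fold higher, and between 2.44% and 5.29% lower. At such shares few of 25 genes would be counted. The median log2 ratio of the 25 was between -0.042 and 0.080, against 0.048 to 0.18 for all genes. Frs2, the docking protein of Fgf receptors, was between 8.74 FPKM in +N and 10.0 in +ND. Mapk3, the most abundant of the 25 in +N, was at 127 FPKM there and at 108 in +NF, 99.97 in +ND and 117 in +NFD. The 5 splicing regulators of the receptor forms also stayed within 2-fold in these comparisons, a list too short to be set against those shares. Esrp1, which promotes the epithelial b form, was between 75.3 and 81.1 FPKM, and Esrp2 was at 58.4 FPKM in +N, 41.8 in +NF, 36.6 in +ND and 47.6 in +NFD. Gene-level FPKM do not separate the b and c forms themselves.

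Of 13 feedback and target genes of ERK, 12 were above their +N level in +NF and 12 were above their +ND level in +NFD, with median log2 ratios of 0.92 and 0.64, and 5 and 2 of them reached 2-fold upward. Over all genes 65.7% and 59.0% were higher in these comparisons, with medians of 0.12 and 0.094, and 2.76% and 3.39% were at least 2-fold higher. Spry1, an inhibitor induced by Fgf signaling, was at 4.77 FPKM in +N, 17.9 in +NF, 5.44 in +ND and 21.7 in +NFD, and Dusp6, an ERK phosphatase, at 64.1, 226, 88.4 and 176 in that order of media. Etv4 and Etv5, transcription factors downstream of Fgf receptors, were also at least 2-fold higher in +ND than in +N, with log2 ratios of 1.04 and 1.09, or 0.94 and 0.99 relative to the median. Etv1, of the same family, was lower in +ND than in +N, at 2.43 against 7.94 FPKM, a log2 ratio of -1.38. In +ND against +N 5.88% of all genes were at least 2-fold higher and 5.29% lower. There, 8 of the 12 list genes that passed 1 FPKM were higher, with a median of 0.43 against 0.10 for all genes. In +NFD against +NF 8 of the 13 were higher, with a median of 0.077 against 0.048, and 0 reached 2-fold.

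**Figure D4:**
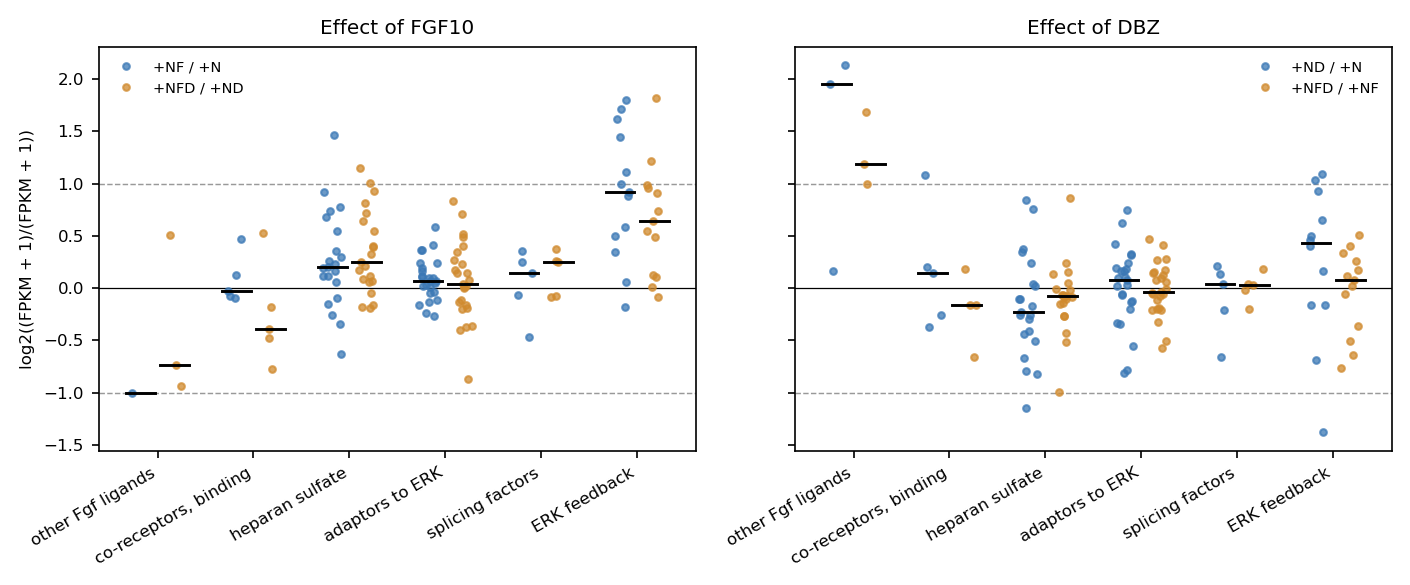
Points show single genes of 6 lists by their log2 ratio of FPKM + 1 (vertical axis) for adding FGF10 (left) and DBZ (right), blue for the background without the other agent and orange for the background with it, with 1 library per medium. Black lines are list medians and dashed lines mark 2-fold; the ERK feedback list has medians of 0.92 and 0.64 for FGF10, while those of the adaptor list lie between -0.042 and 0.080.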

How the data were processed

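Reads from TruSeq libraries were checked and trimmed by the authors with FastQC 0.11.9 and Trim Galore 0.6.5 and aligned to GRCm38 with TopHat 2.1.1. The deposited FPKM were estimated by the authors with Cufflinks, and the annotation release and strand setting were not given in the sources used here. A further column counts in how many of the 6 libraries of the series an entry is above 0. Entries sharing a symbol were summed (123 symbols). Ratios were computed over the whole table. The 10 genes and the lists were chosen with earlier results of these data known. Of the genes first listed, 3 are not reported here and were left out of their lists. Named genes are the 10, list members at 2-fold in any comparison or highest in +N, and the 3 closest patterns; others were chosen after their values were seen. Fragment numbers are approximate: the step between low FPKM of 8367 genes with 1 GENCODE M21 transcript of at least 1000 nt was divided into FPKM multiplied by the longest transcript, an upper estimate where shorter transcripts contribute. Intervals and the limit of 3 fragments cover counting error only. Computations were tested on simulated data. Alternatives were pseudocounts, filters, upper-quartile scaling, centring and the highest entry per symbol. Computations used pandas 2.3.3 and numpy 2.4.6 under Python 3.11.15, exact intervals scipy 1.17.1, and plots matplotlib 3.10.9.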

Additional observations from a re-analysis of the deposited data

Results flagged for a closer look

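Fgf1 was the only one of the 10 genes whose log2 ratio for 1 agent had opposite signs in the 2 backgrounds, among those that passed 1 FPKM in both: for FGF10 it was -0.19 without DBZ and 0.40 with it. The difference was not tested, and both are short of 2-fold.

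The authors' column of detections covers also the Jagged1 media, whose FPKM were not analysed here. It lists Fgf4, at 0 in all 4 libraries above, as above 0 in 1 further library. By the same column Fgf9, at 0 in +N and +NF, was above 0 in 2 further libraries, and Fgf20, at 0 in +N and +NFD, in 1 further library. Fgfr4, at 0 in +ND and +NF, was above 0 in 2 further libraries as well. The further libraries are those of the Jagged1 media, which held no DBZ. No level is attached to these detections.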

How the results depend on the processing

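Of 190 ratios of single genes under the alternatives, 140 were counted as within the counting interval of the ratio as reported and 50 as beyond it. For Fgf9 in +NFD against +NF and against +N the interval had no upper end, so any shift there was counted as beyond it. Of the 2-fold ratios 0 changed sign. In 7 cases a ratio went from just above to just below 2-fold, all of them Fgfr1, Fgfr2 or Fgfr3 under centring or upper-quartile scaling. The number of the 10 genes at 2-fold in +ND against +N went from 4 to 2 with upper-quartile scaling and to 2 with centring, since Fgfr1 and Fgfr3 dropped out. In +NFD against +ND it went from 2 to 1 with centring, since Fgfr1 dropped out, and to 1 with a limit of 5 FPKM, since Fgf9 dropped out. In the other 3 comparisons the count stayed within 1.5 times of that reported under all 7 alternatives. With 0.1 instead of 1 added to FPKM, more genes of the whole table were at 2-fold, from 361 to 712 higher and 319 to 480 lower in +NF against +N, from 450 to 818 higher in +NFD against +ND, from 774 to 1212 higher in +ND against +N and from 782 to 1271 higher in +NFD against +N. No paired analysis was possible because each medium has 1 library, and for the same reason no library could be left out. Values of Fgfr4, Fgf4 and Fgf20 are limited by depth.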

Other observations

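The 4 Fgf homologous factors, Fgf11 to Fgf14, are not secreted and do not act through these receptors. Fgf11 was at 2.33 FPKM in +N, 1.55 in +NF, 1.32 in +ND and 2.46 in +NFD. Fgf12 was at 0.786 FPKM in +N, 0.262 in +NF and 0.0829 in +NFD and was listed at 0 in +ND. Fgf13 was between 0.118 and 0.319 FPKM and Fgf14 was under 0.03 FPKM in each library, so that 1 of the 4 reached 1 FPKM and none of the 4 reached 2-fold with that limit.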
